A study of Mus musculus with 12 samples.

Results

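Transcripts of 10 Krüppel-like factors (KLFs) were examined in cultured mouse cardiac fibroblasts with and without Smad7, left unstimulated or given TGF-β1. The genes were Klf2, Klf3, Klf4, Klf5, Klf6, Klf7, Klf9, Klf10, Klf11 and Klf13, taken by symbol from the 35275 genes of the deposited count table. All 10 had enough reads to be among the 15150 genes tested. KLFs are transcription factors that bind GC-rich and CACCC sequences in DNA through C2H2 zinc fingers close to the end of the protein. In the heart and its vessels they are known as regulators of endothelial quiescence, smooth muscle and myofibroblast differentiation, inflammation and metabolism, and Klf10 and Klf11 were first described as genes induced early by TGF-β. Smad7 is an inhibitory Smad that restrains signalling by TGF-β receptors.

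RNA-Seq was performed on cardiac fibroblasts at passage 2 from 12-week-old C57BL/6 mice carrying floxed Smad7 alleles (Smad7 fl/fl), which all conditions share. Smad7 was deleted in culture with an adenovirus that expresses Cre recombinase (Smad7-KO), and control cells received a control adenovirus, named as GFP in the labels and as empty in the study's methods, each at 100 MOI for 48 hours. Cells were left unstimulated or were given TGF-β1 at 10 ng/ml, for 2 hours by one label and for 4 hours by the treatment protocol. Each of the 4 conditions had 3 libraries, described as independent samples without naming cultures or animals, so p values measure only the spread between these libraries. Because the virus acts on any cell it enters in the dish, the deletion is specific to the culture and not to a cell type.

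Total counts ranged from 19056916 to 25371321 per library. Levels below are TMM-normalised read counts scaled to library size (CPM), and each mean carries the SD over the n = 3 libraries of its condition. Smad7 was lower with the Cre virus in both states: it was measured at 74.4 ± 2.94 CPM (control) against 29.4 ± 1.48 CPM (Smad7-KO) without stimulation, and at 146 ± 4.24 CPM against 76.8 ± 5.89 CPM with TGF-β1. Unstimulated control library 2 stood apart from the other libraries. When tested genes were divided by length into 3 equal parts, the longest genes held 23.0% of its counts, compared with 30.7% to 40.9% elsewhere. Beyond counting noise, replicate libraries varied with a coefficient of 0.332 in unstimulated control and of 0.0528 to 0.137 in the other conditions. For the 10 genes, the value without this library is given below where omission changed a call or moved a called value over 1.5 times. It is also given for the widely spread Klf3, Klf7 and Klf9. Calls of other genes come from the fit of all 12 libraries and were not examined without this library.

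Markers were used to examine what the cultures held. The summed level of 12 fibroblast markers was between 8292 and 12285 CPM in the 12 libraries. The 11 macrophage markers found in the table summed to between 15940 and 25780 CPM, which exceeded the fibroblast sum in each library, and Lyz2 alone averaged between 9689 and 14324 CPM in the 4 conditions. Of the fibroblast markers 2 were higher and 3 lower with Smad7 loss in unstimulated cells, and 2 were higher and 2 lower in stimulated cells. In unstimulated Smad7-KO cells 6 of the 11 macrophage markers were higher than in control and 0 were lower. In stimulated cells 5 were higher and 0 were lower. For these and the marker counts that follow, 12.1% of all tested genes were higher and 13.7% lower in unstimulated cells. In stimulated cells 5.72% of all tested genes were higher and 7.23% lower. The 15 endothelial markers summed to between 315 and 380 CPM in control libraries and to between 52.3 and 62.8 CPM in Smad7-KO libraries. Of the 13 endothelial markers tested, 10 were lower and 1, Vwf, was higher in Smad7-KO cells, both without and with TGF-β1. Among the defining endothelial genes Cldn5 was near the floor in all conditions, with at most 5 counts in any library. Of 8 tested markers of smooth muscle and pericytes, 5 were lower with Smad7 loss in unstimulated and 2 in stimulated cells, and of 7 epicardial markers 5 and 3 were lower. Cardiomyocyte markers summed to at most 78.0 CPM and lymphocyte and neutrophil markers to at most 2.14 CPM in any library. Since all cells in the dish contribute RNA, fewer cells of a type and less RNA per cell cannot be told apart.

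**Figure D1:**
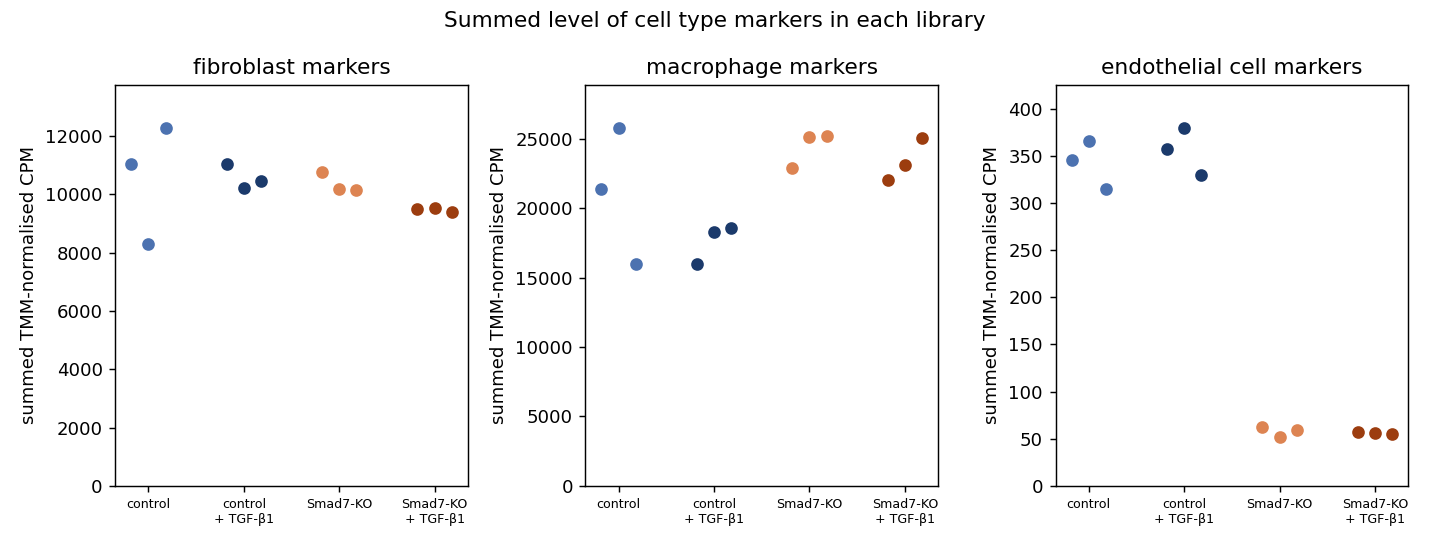
Summed TMM-normalised CPM of fibroblast, macrophage and endothelial markers (vertical axes) in the 3 libraries of each of the 4 conditions (horizontal axes), with 1 point per library. Endothelial markers lie between 315 and 380 CPM in control and between 52.3 and 62.8 CPM in Smad7-KO libraries, whereas macrophage markers exceed fibroblast markers in each library.

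The zinc fingers are the stretch that unites the family. A run of 243 bases that encodes 3 fingers was found in the coding sequence of all 10 genes, in the GENCODE M21 transcripts of the GRCm38 assembly. Over the 45 pairs of genes its identity had a median of 64.6% and ranged from 57.2%, for Klf4 with Klf9 and for Klf5 with Klf10, to 81.1% for Klf6 with Klf7. Klf2 and Klf4 shared 78.2% of the bases, and Klf10 and Klf11 shared 76.1%. The longest identical run between the transcripts of any pair was 26 bases, in Klf6 and Klf7. The last finger of 6 genes is shown to compare the Klf2 and Klf4 branch with the Klf9, Klf10, Klf11 and Klf13 branch. Each sequence reads 5′ to 3′ on the coding strand, lies in coding exon sequence, and has the codons of its 2 zinc-binding cysteines and 2 zinc-binding histidines in capitals.
Klf2 (chr8:72320851-72320913, + strand): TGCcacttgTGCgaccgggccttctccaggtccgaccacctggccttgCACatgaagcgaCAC
Klf4 (chr4:55528131-55528193, - strand): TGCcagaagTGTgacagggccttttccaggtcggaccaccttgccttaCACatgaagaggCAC
Klf9 (chr19:23164790-23164852, + strand): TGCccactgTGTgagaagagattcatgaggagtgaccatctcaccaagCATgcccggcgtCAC
Klf10 (chr15:38295995-38296057, - strand): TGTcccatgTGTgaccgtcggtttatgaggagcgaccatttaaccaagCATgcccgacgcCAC
Klf11 (chr12:24660290-24660352, + strand): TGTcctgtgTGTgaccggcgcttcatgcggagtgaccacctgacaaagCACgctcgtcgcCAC
Klf13 (chr7:63891628-63891690, - strand): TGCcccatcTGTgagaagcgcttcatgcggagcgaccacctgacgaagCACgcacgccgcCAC

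The 10 genes differed widely in level. By FPKM, which divides by transcript length and library size, Klf6 was the most abundant, with a median of 49.5 FPKM over the 12 libraries (42.6 to 67.2). It was followed by Klf3 at 23.1 FPKM, Klf13 and Klf4 at 17.9 FPKM each, Klf10 at 7.24, Klf2 at 6.65, Klf9 at 5.88 and Klf11 at 4.66 FPKM. Klf7 had a median of 1.26 FPKM and Klf5, an epithelial and smooth muscle member, a median of 0.322 FPKM with 7 to 20 counts per library. The range of Klf6 did not overlap that of Klf3 (5.44 to 35.6 FPKM), whereas Klf3, Klf13 and Klf4 overlapped one another, as did Klf10, Klf2, Klf9 and Klf11. The deposited FPKM divided Klf3 counts by 2314 bases, while the longest annotated Klf3 transcript has 5221 bases. For Klf9 these lengths were 3263 and 4486 bases and for Klf5 1721 and 3352 bases, so the levels of these 3 genes, and their places in the order, depend on the length used.

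**Figure D2:**
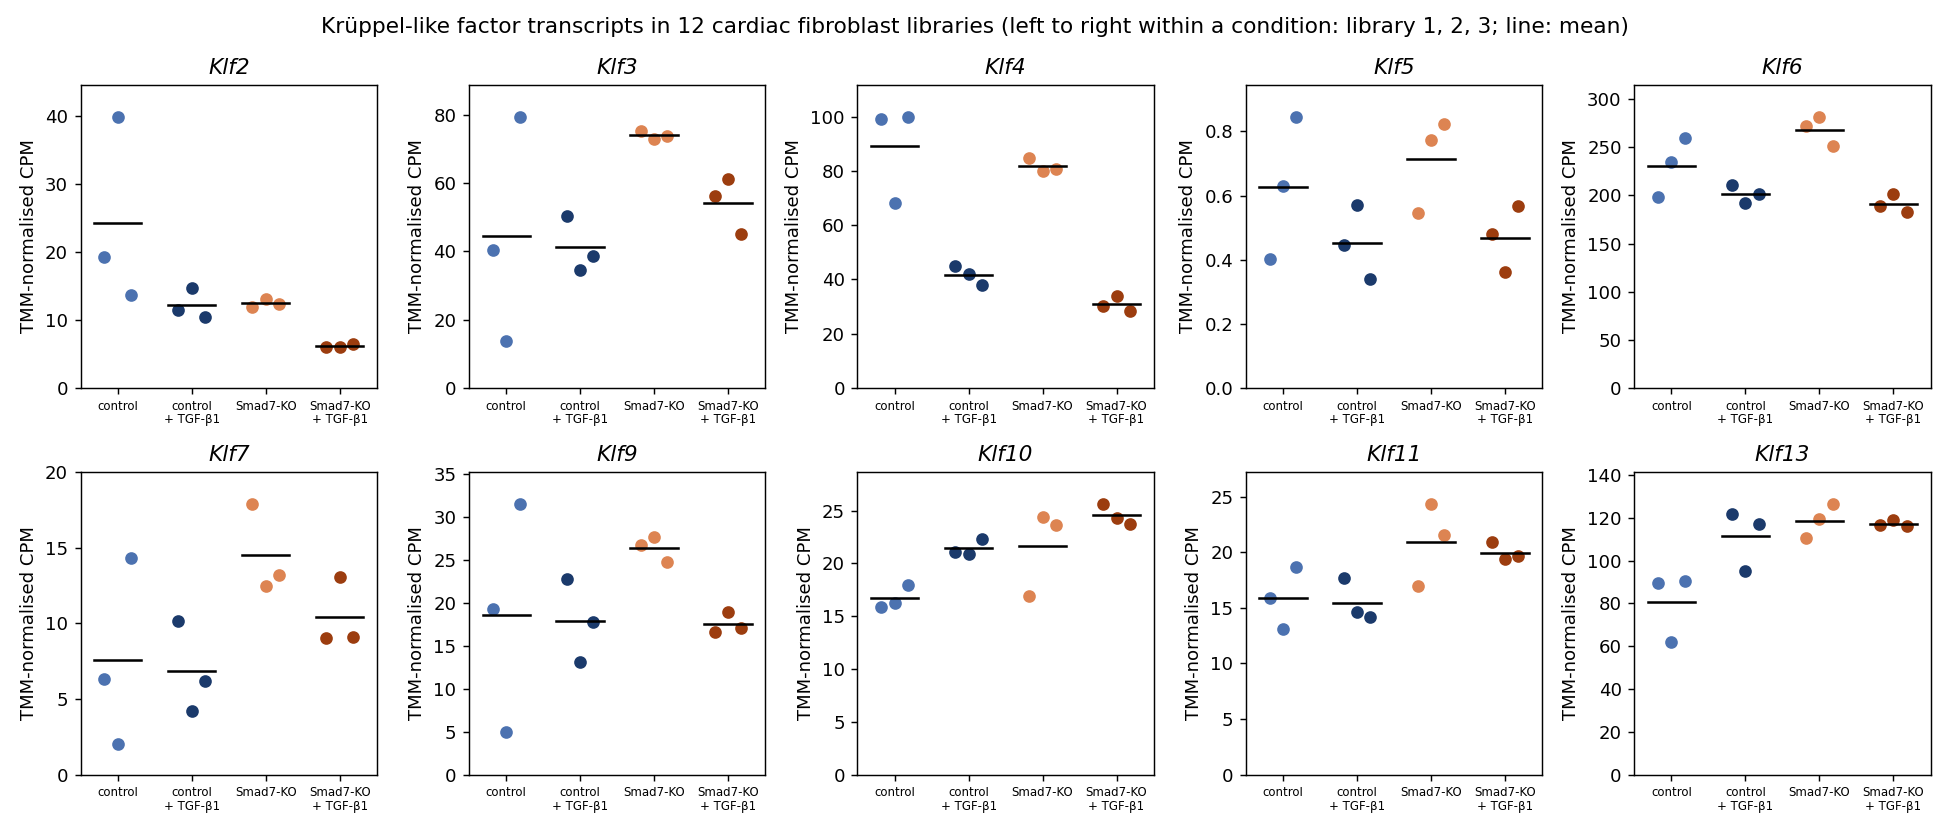
TMM-normalised CPM of each gene (vertical axes, starting at 0) in the 4 conditions (horizontal axes), with 1 point per library in the order 1, 2, 3 and a line at the mean of 3 libraries. Klf4 lies between 68.2 and 99.7 CPM in unstimulated libraries and between 28.5 and 45.0 CPM in TGF-β1 libraries, while the points of Klf3, Klf7 and Klf9 are spread widest in unstimulated control.

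Counted together, 2 of the 10 genes were called between unstimulated Smad7-KO and control cells (adjusted p of 0.05 or less), against 25.8% of all tested genes. Klf13 was the 1 higher gene (12.1% of all tested genes were higher) and Klf2 the 1 lower gene (13.7% were lower). The libraries of these conditions did not overlap for the same 2 genes, against 41.3% of all tested genes (22.1% higher and 19.2% lower). In stimulated cells edgeR called 0 of 10 with Smad7 loss, against 13% of all tested genes (5.72% higher and 7.23% lower). Of the 10, 3 had an unadjusted p under 0.05 there (Klf2, Klf4 and Klf11), against 4358 of all 15150 tested genes. DESeq2 on all libraries and limma each called 1, Klf2. Over all tested genes DESeq2 called 18%, and limma 14.4% and 14% at its 2 pseudocounts. Libraries did not overlap for 4 of 10 genes, 2 higher (Klf10 and Klf11) and 2 lower (Klf2 and Klf4), against 44.9% of all tested genes (21.9% higher and 23% lower).

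Under TGF-β1 1 of 10 was called in control cells, Klf4, which was lower, against 8.37% of all tested genes (5.04% higher and 3.33% lower). Libraries did not overlap for 3 of 10, 2 higher (Klf10 and Klf13) and 1 lower (Klf4), against 19.8% (10.9% higher and 9% lower). In Smad7-KO cells TGF-β1 gave 2 calls of 10, Klf4 and Klf6, both lower, against 10.2% of all tested genes (5.33% higher and 4.9% lower). Libraries did not overlap for 5 of 10, all lower (Klf2, Klf3, Klf4, Klf6 and Klf9), against 39% (19% higher and 19.9% lower). The interaction, which tests whether the TGF-β1 response differs between backgrounds, called 0 of 10 by edgeR, DESeq2 and limma, with 1 of 10 at an unadjusted p under 0.05 by edgeR, against 0.0198% of all tested genes called. The median log2 fold change of the 10 genes was 0.39 and 0.06 with Smad7 loss in unstimulated and stimulated cells, and -0.13 and -0.49 with TGF-β1 in control and Smad7-KO cells. Over all tested genes these medians were -0.02, -0.02, -0.03 and -0.01. The comparisons share libraries and are not independent of one another.

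Klf4 fell with TGF-β1 in both backgrounds. Klf4 (ENSMUSG00000003032, chr4:55527143-55532466 on the minus strand, 5 exons) encodes a regulator of endothelial, smooth muscle and macrophage states. In control fibroblasts it was at 99.0, 68.2 and 99.7 CPM without stimulation and at 45.0, 41.9 and 38.0 CPM with TGF-β1. In Smad7-KO fibroblasts it was at 84.7, 80.1 and 80.6 CPM without stimulation and at 30.3, 33.8 and 28.5 CPM with TGF-β1. Each stimulated library was below each unstimulated library of its background. The fall was 2.14-fold in control (log2 fold change -1.10, SE 0.14, adjusted p = 4.98e-04) and 2.65-fold in Smad7-KO fibroblasts (log2 fold change -1.41, SE 0.15, adjusted p = 7.23e-05). It was called in all 12 fits that left out 1 library and under all 13 other settings, with log2 fold changes between -1.26 and -0.998 in control and between -1.48 and -1.35 in Smad7-KO cells.

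Klf4 was not called with Smad7 loss. Without stimulation its mean was 88.9 ± 18.0 CPM (control) against 81.8 ± 2.52 CPM (Smad7-KO), a log2 fold change of -0.12 (SE 0.14, adjusted p = 0.522). Without unstimulated control library 2 it was -0.28 (adjusted p = 0.0636), and 2 of 13 other settings called it lower, both without that library. With TGF-β1 the means were 41.6 ± 3.49 CPM and 30.9 ± 2.72 CPM, and each Smad7-KO library was below each control library. That difference was 1.35-fold (log2 fold change -0.43, SE 0.14, adjusted p = 0.071) and was not called. It was called in 2 of 12 fits that left out a library and under 6 of 13 other settings, such as edgeR on the libraries of that comparison alone (adjusted p = 0.0144). Those 6 include the 3 settings without control libraries numbered 2, which were added after seeing the data. Without unstimulated control library 2 the adjusted p of the difference was 0.00547. That library is not part of this comparison, and without it 28.8% of all tested genes were called, against 13% with all 12 libraries. The interaction was -0.31 for Klf4 (SE 0.20, adjusted p = 0.98), and -0.14 without that library.

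Klf2 was lowest in Smad7-KO cells given TGF-β1. Klf2 (ENSMUSG00000055148, chr8:72319033-72321656 on the plus strand, 3 exons) is the shear-induced factor that keeps endothelium quiescent and also restrains monocyte activation. It was at 19.2, 39.8 and 13.7 CPM in unstimulated control libraries and at 11.9, 13.0 and 12.4 CPM in unstimulated Smad7-KO libraries. With TGF-β1 it was at 11.5, 14.7 and 10.4 CPM in control and at 6.06, 6.06 and 6.51 CPM in Smad7-KO libraries. The Smad7-KO libraries were below the control libraries without overlap in both states, and the highest control value came from library 2, which stood apart. Unstimulated Klf2 was 1.94-fold lower with Smad7 loss (log2 fold change -0.95, SE 0.31, adjusted p = 0.0428). Without unstimulated control library 2 the log2 fold change was -0.39 (adjusted p = 0.113), and the call was kept in 1 of 12 fits that left out a library and under 3 of 13 other settings.

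The other Klf2 differences were of similar size and were not called. In TGF-β1-stimulated cells Klf2 was 1.97-fold lower with Smad7 loss (log2 fold change -0.98, SE 0.32, adjusted p = 0.0645, and 0.00106 without unstimulated control library 2). Without that library, which is not part of this comparison, 28.8% of all tested genes were called, against 13% with it. With TGF-β1 the Klf2 log2 fold change was -0.98 in control (SE 0.31, adjusted p = 0.0771) and -1.005 in Smad7-KO cells (SE 0.32, adjusted p = 0.0713). In Smad7-KO cells the libraries of both states did not overlap (12.5 ± 0.556 CPM against 6.21 ± 0.259 CPM). The difference in Smad7-KO cells was called when only those libraries were fitted (adjusted p = 1.38e-05 by edgeR) and without unstimulated control library 2 (adjusted p = 8.05e-04). Those fits called 26.3% and 16.3% of all tested genes, against 10.2% in the main fit. The Klf2 log2 fold change in control cells was -0.43 without unstimulated control library 2 (adjusted p = 0.138). Of the 13 other settings, 9 called Klf2 lower in stimulated Smad7-KO than in stimulated control cells, and 9 called it lower with TGF-β1 in Smad7-KO cells. In both comparisons these include the 3 settings without control libraries numbered 2, which were added after seeing the data.

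Endothelial and macrophage markers moved with Smad7 loss in the same libraries, and their part in the Klf2 and Klf4 values was not tested. The summed endothelial level was between 315 and 365 CPM in unstimulated control libraries and between 329 and 380 CPM with TGF-β1. In Smad7-KO libraries it was between 52.3 and 62.8 CPM unstimulated and between 54.4 and 56.9 CPM with TGF-β1. The macrophage sum was between 16003 and 25780 CPM in unstimulated and between 15940 and 18581 CPM in stimulated control libraries, and between 22047 and 25163 CPM in Smad7-KO libraries.

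**Figure D3:**
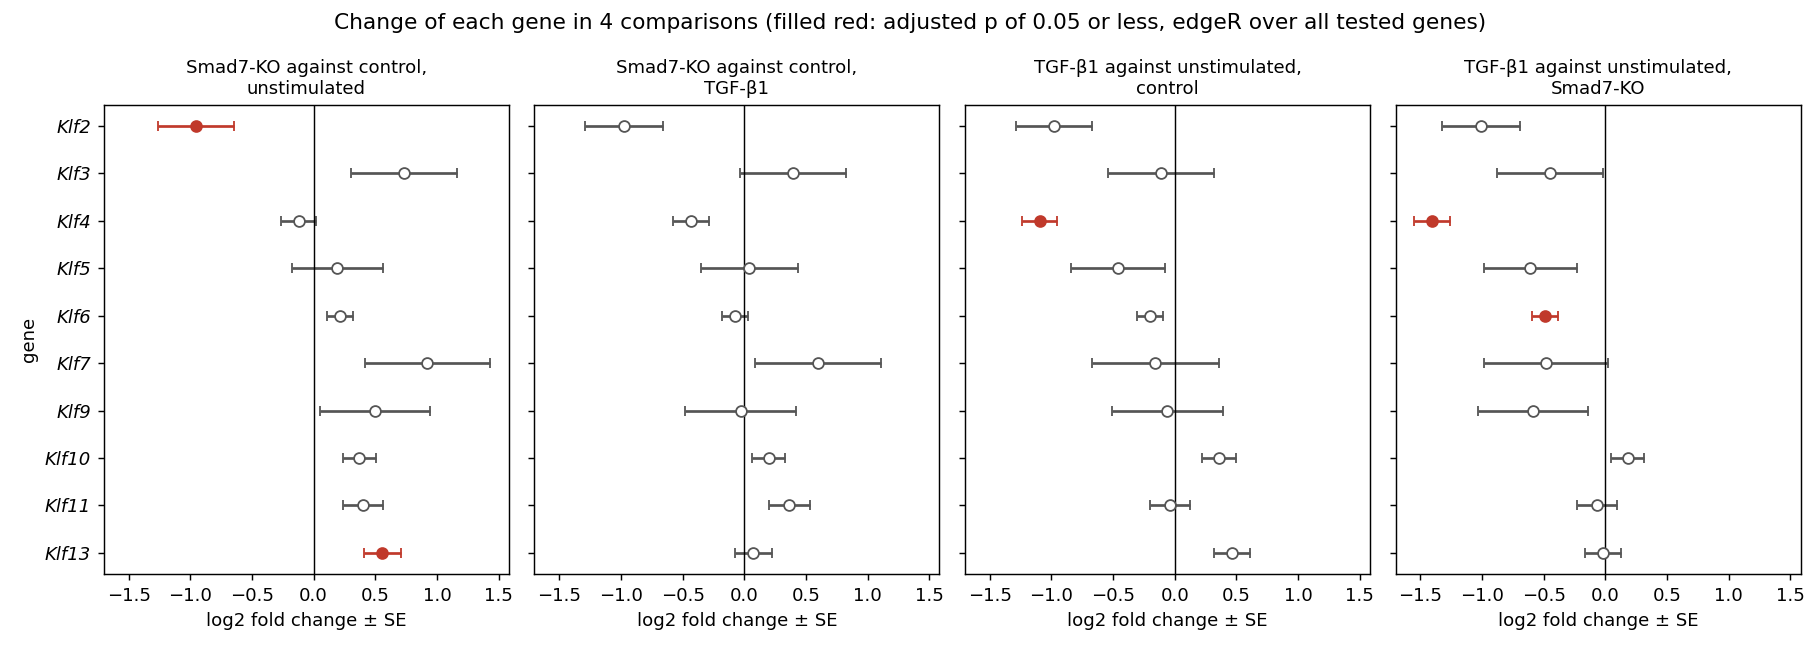
Log2 fold change of each gene (horizontal axes, bars ± 1 SE from edgeR) in 4 comparisons, with genes on the vertical axis and filled red points at an adjusted p of 0.05 or less. Klf4 is at -1.10 and -1.41 under TGF-β1, and Klf2 lies between -1.005 and -0.95 in all 4 comparisons but is filled only for unstimulated Smad7-KO against control.

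The sequences before the Klf2 and Klf4 start sites are shown because Klf4 fell and Klf2 had negative log2 fold changes under TGF-β1 in both backgrounds, and both hold GC boxes. They come from RefSeq (GRCm38.p6), whose windows run from 250 bases before to 50 bases after a start site, and only the bases before the annotated GENCODE gene are printed, 5′ to 3′ on the strand of the gene. Capitals mark the GC box GGGCGG on either strand and, in Klf2, a match to the MEF2 motif. MEF2 factors act downstream of the kinases MEK5 and ERK5, a cascade known to induce Klf2 and Klf4.
Klf2 (chr8:72318812-72319032, + strand): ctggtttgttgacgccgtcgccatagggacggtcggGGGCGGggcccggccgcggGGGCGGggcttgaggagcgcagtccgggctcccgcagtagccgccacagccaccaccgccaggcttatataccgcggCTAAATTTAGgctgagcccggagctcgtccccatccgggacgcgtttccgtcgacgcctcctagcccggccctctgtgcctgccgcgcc
Klf4 (chr4:55532476-55532725, - strand): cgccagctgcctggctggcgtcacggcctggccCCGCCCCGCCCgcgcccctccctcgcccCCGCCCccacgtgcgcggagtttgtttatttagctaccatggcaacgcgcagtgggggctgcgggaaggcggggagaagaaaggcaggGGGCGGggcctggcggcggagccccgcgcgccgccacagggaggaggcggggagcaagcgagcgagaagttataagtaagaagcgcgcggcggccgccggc
Motifs were counted over all 250 bases before the start site. There the GC box occurred in 7 of the 8 genes with an entry and in 32.9% of all 27025 promoters. The MEF2 motif occurred in 1 of 8 and in 3.01% of all promoters. The Smad box CAGAC, counted on both strands, occurred in 1 of 8, namely Klf3, and in 42.1% of all promoters. The CACCC box, which KLF proteins themselves bind, occurred in 5 of 8 and in 51.3% of all promoters. In the 8 genes these 250 bases had between 59.2% and 78.4% G and C, against a median of 52% over all promoters.

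Of the 6 genes of the MEK5, ERK5 and MEF2 cascade, all were tested. Mef2c was higher in unstimulated Smad7-KO cells, with a log2 fold change of 0.83 (SE 0.22, adjusted p = 0.0206). Mef2a rose with TGF-β1 in control cells by a log2 fold change of 0.88 (SE 0.15, adjusted p = 0.00299) and in Smad7-KO cells by 1.10 (SE 0.15, adjusted p = 5.48e-04). It was also higher in stimulated Smad7-KO than in stimulated control cells, by 0.64 (SE 0.15, adjusted p = 0.016). Each of the 4 comparisons thus had 1 called gene of 6, upward, which was Mef2c with Smad7 loss in unstimulated cells and Mef2a otherwise. Over all tested genes 12.1% were higher with Smad7 loss in unstimulated and 5.72% in stimulated cells. With TGF-β1 5.04% of all tested genes rose in control and 5.33% in Smad7-KO cells. The kinases Mapk7 (ERK5) and Map2k5 (MEK5) were not called in any of the 4 comparisons.

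For the targets, of 6 genes that KLF2 and KLF4 are known to regulate in endothelium, 5 were tested. The list does not give the direction in which KLF2 or KLF4 acts on each gene, and a link to Klf2 or Klf4 was not tested. Edn1 (endothelin 1), Cdh5 (VE-cadherin) and Thbd (the anticoagulant receptor thrombomodulin) were lower with Smad7 loss in both states. Over all tested genes 13.7% were lower in unstimulated and 7.23% in stimulated cells. For Edn1 and Cdh5 the log2 fold changes were -2.77 and -3.48 in unstimulated cells and -2.98 and -3.41 with TGF-β1. For Thbd they were -0.55 (SE 0.13, adjusted p = 0.0131) and -1.14 (SE 0.13, adjusted p = 3.97e-04). Cdh5, Tek and Kdr are also on the endothelial marker list. In Smad7-KO cells TGF-β1 lowered Thbd and Tek, the angiopoietin receptor, with log2 fold changes of -0.99 and -1.10 (adjusted p = 4.71e-04 and 0.00228), whereas in control cells only Tek was called (-0.72, adjusted p = 0.0274). With TGF-β1 4.9% of all tested genes fell in Smad7-KO and 3.33% in control cells.

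Klf6 fell with TGF-β1 in Smad7-KO cells. Klf6 (ENSMUSG00000000078, chr13:5861489-5870393 on the plus strand, 4 exons) is an injury-induced activator that is abundant in myeloid and mesenchymal cells. In Smad7-KO libraries it was at 271.6, 281.1 and 251.7 CPM without stimulation and at 189.2, 201.1 and 182.7 CPM with TGF-β1, without overlap. This was a 1.404-fold fall (log2 fold change -0.49, SE 0.11, adjusted p = 0.0126). In control libraries it was at 198.5, 235.0 and 259.6 CPM and at 210.4, 191.8 and 201.0 CPM, which overlapped (log2 fold change -0.20, SE 0.11, adjusted p = 0.344). The interaction of -0.29 (SE 0.15, adjusted p = 0.98) did not pass the threshold, so a difference between backgrounds was not shown. The Klf6 call held under all 13 other settings and in 8 of 12 fits without 1 library. It was lost without unstimulated Smad7-KO library 1 or 2 or TGF-β1 Smad7-KO library 1 or 3, with adjusted p between 0.054 and 0.0655. In unstimulated cells Klf6 averaged 231 ± 30.8 CPM (control) against 268 ± 14.99 CPM (Smad7-KO), which was not called.

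Klf13 rose with Smad7 loss in unstimulated cells. Klf13 (ENSMUSG00000052040, chr7:63886347-63938915 on the minus strand, 2 exons) is a repressor of the Sin3A-binding branch that is best known from lymphocytes and heart development. It was at 89.6, 61.8 and 90.3 CPM in control and at 110.4, 119.2 and 126.4 CPM in Smad7-KO libraries, without overlap. The rise was 1.47-fold (log2 fold change 0.56, SE 0.15, adjusted p = 0.0216). It was called without unstimulated control library 2 (0.40, adjusted p = 0.0223), but not without unstimulated Smad7-KO library 2 or 3 (adjusted p = 0.067 and 0.0801). When the trend of counts on gene length was removed from each library, the log2 fold change was 0.21 (adjusted p = 0.139). The annotated genes Gm27252 and E030018B13Rik lie within the span of Klf13 on the opposite strand.

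With TGF-β1 the Klf13 libraries lay together. They were at 121.8, 95.3 and 116.9 CPM in control and at 116.7, 119.1 and 116.1 CPM in Smad7-KO cells. In control cells all stimulated libraries were above all unstimulated libraries (log2 fold change 0.47, SE 0.15, adjusted p = 0.0804), a difference called by DESeq2 on all libraries (adjusted p = 0.0431). The Klf13 interaction was -0.48 (SE 0.21, unadjusted p = 0.0391, adjusted p = 0.98). Among the 10 genes it was the 1 with an unadjusted p under 0.05. Without unstimulated control library 2, the lowest of the Klf13 libraries, the interaction was -0.31 and the log2 fold change with TGF-β1 in control was 0.31 (adjusted p = 0.102).

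Klf10 and Klf11, known as TGF-β-inducible early genes, were not called by edgeR on all libraries in any comparison. Klf10 (ENSMUSG00000037465, chr15:38294413-38300707 on the minus strand) was at 15.9, 16.3 and 18.0 CPM in unstimulated control libraries and at 21.1, 20.9 and 22.3 CPM with TGF-β1. The stimulated control libraries were all above the unstimulated ones, by 1.28-fold, and the difference was not called (log2 fold change 0.36, SE 0.14, adjusted p = 0.152). In Smad7-KO libraries Klf10 was at 16.9, 24.4 and 23.6 CPM unstimulated and at 25.6, 24.3 and 23.7 CPM with TGF-β1, which overlapped. In unstimulated cells the log2 fold change with Smad7 loss was 0.37 (SE 0.14, adjusted p = 0.0608), and DESeq2 on all libraries and the removal of the length trend each called it. Klf11 (ENSMUSG00000020653, chr12:24651371-24662774 on the plus strand) had means of 15.9 ± 2.75 CPM (control) and 21.0 ± 3.74 CPM after Smad7 loss when unstimulated, and of 15.5 ± 1.94 and 19.96 ± 0.822 CPM with TGF-β1. Its stimulated Smad7-KO libraries were all above the stimulated control libraries (log2 fold change 0.37, SE 0.16, adjusted p = 0.165). That difference was called under 4 of 13 other settings, such as edgeR on the libraries of the comparison alone (adjusted p = 0.0366).

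In the same libraries 11 of the 15 tested early TGF-β/Smad targets were called under TGF-β1 in control cells, 10 higher and 1 lower, and 11 of 15 were higher in Smad7-KO cells. Pmepa1, a feedback inhibitor of the pathway, had the lowest p of the list, with log2 fold changes of 2.16 in control and 2.56 in Smad7-KO cells (SE 0.10 each, adjusted p = 5.33e-07 and 6.72e-08). The median log2 fold change of these 15 targets was 0.96 in control and 1.38 in Smad7-KO cells, against -0.03 and -0.01 over all tested genes. Of the 15 immediate early genes 3 rose in control and 4 in Smad7-KO cells, with Junb, Egr2 and Ier3 among them in both. Over all tested genes 5.04% and 5.33% rose. With Smad7 loss 10 of the 15 Smad targets, Smad7 included, were lower in unstimulated and 4 in stimulated cells. Of the immediate early genes 4 and 3 were lower. Among all tested genes 13.7% and 7.23% were lower.

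Klf3, Klf7 and Klf9 varied most of the 10 genes between unstimulated control libraries. Klf3 (ENSMUSG00000029178, chr5:64803523-64830129) is a repressor that recruits CtBP, Klf7 (ENSMUSG00000025959, chr1:64029447-64122282) is known from neurons and adipocytes, and Klf9 (ENSMUSG00000033863, chr19:23141226-23166911) is induced by glucocorticoid and thyroid hormone. Klf3 was at 40.3, 13.7 and 79.2 CPM in unstimulated control libraries 1, 2 and 3, and at 75.2, 73.0 and 73.7 CPM in unstimulated Smad7-KO libraries. Klf9 was at 19.3, 4.91 and 31.5 CPM in the same control libraries and at 26.8, 27.7 and 24.7 CPM in Smad7-KO libraries. Klf7 was at 6.32, 2.06 and 14.3 CPM and at 17.9, 12.5 and 13.2 CPM. For all 3 genes control library 2 was lowest and control library 3 highest, and the groups overlapped. The log2 fold changes with Smad7 loss were 0.73 for Klf3 (SE 0.43), 0.92 for Klf7 (SE 0.51) and 0.50 for Klf9 (SE 0.45), with adjusted p between 0.181 and 0.402. Without unstimulated control library 3 all 3 were called, with log2 fold changes of 1.45, 1.76 and 1.11, as were 51.5% of all tested genes. Without library 2 none was called, with log2 fold changes of 0.31, 0.49 and 0.058.

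The share of counts in the longest genes moved with these values. It was 31.2%, 23.0% and 40.3% in unstimulated control libraries 1, 2 and 3, and between 36.1% and 40.9% in the 6 Smad7-KO libraries. Klf2 ran the opposite way in unstimulated control libraries, being highest in library 2 and lowest in library 3. The deposited lengths, which the share and the length trend use, were 1847 bases for Klf2 and 1721 for Klf5. They were 2314 bases for Klf3, 3263 for Klf9 and 7662 for Klf7. With the length trend removed, the log2 fold change of Klf2 with Smad7 loss in unstimulated cells was -0.68 (adjusted p = 0.0552), that of Klf3 was 0.82 and that of Klf7 0.66. Whether length, or another property of these libraries, set the values of any single gene was not tested.

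**Figure D4:**
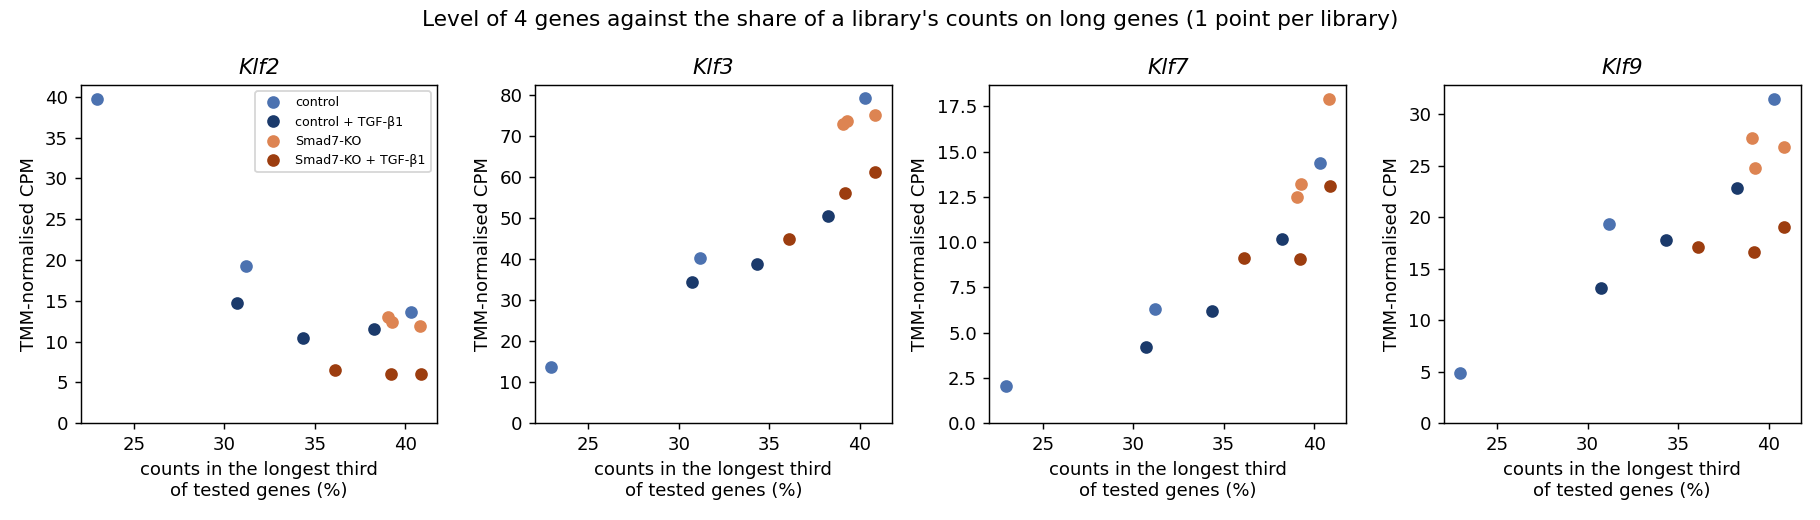
TMM-normalised CPM of Klf2, Klf3, Klf7 and Klf9 (vertical axes) against the percentage of a library's counts in the longest of 3 equal parts of the tested genes (horizontal axes), with 1 point per library coloured by condition. Unstimulated control library 2, at 23.0%, has the highest Klf2 and the lowest Klf3, Klf7 and Klf9 of all 12 libraries.

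With TGF-β1 in Smad7-KO cells, Klf3 and Klf9 were lower in every stimulated library than in every unstimulated library. Klf9 had means of 26.4 ± 1.54 CPM and 17.6 ± 1.26 CPM (log2 fold change -0.59, SE 0.45, adjusted p = 0.582). Klf3 had means of 74.0 ± 1.15 CPM and 54.1 ± 8.32 CPM (log2 fold change -0.45, SE 0.43, adjusted p = 0.70). The SE reflects a spread estimated from all 12 libraries, in which the control libraries of these genes differ widely. Fitted on the libraries of that comparison alone, edgeR called both (adjusted p = 2.2e-04 for Klf9 and 0.00269 for Klf3). That fit called 26.3% of all tested genes, against 10.2% in the fit of all 12 libraries. In control cells the stimulated and unstimulated libraries of Klf3, Klf7 and Klf9 overlapped, with log2 fold changes of -0.11, -0.16 and -0.06, and of -0.54, -0.59 and -0.51 without unstimulated control library 2.

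Klf5 (ENSMUSG00000005148, chr14:99298691-99313405) stayed near the limit of detection. In control cells its mean was 0.625 ± 0.220 CPM without and 0.451 ± 0.115 CPM with TGF-β1, and in Smad7-KO cells 0.714 ± 0.149 CPM without and 0.469 ± 0.102 CPM with TGF-β1. The libraries overlapped in every comparison, and at this depth no difference was detectable.

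**Figure D5:**
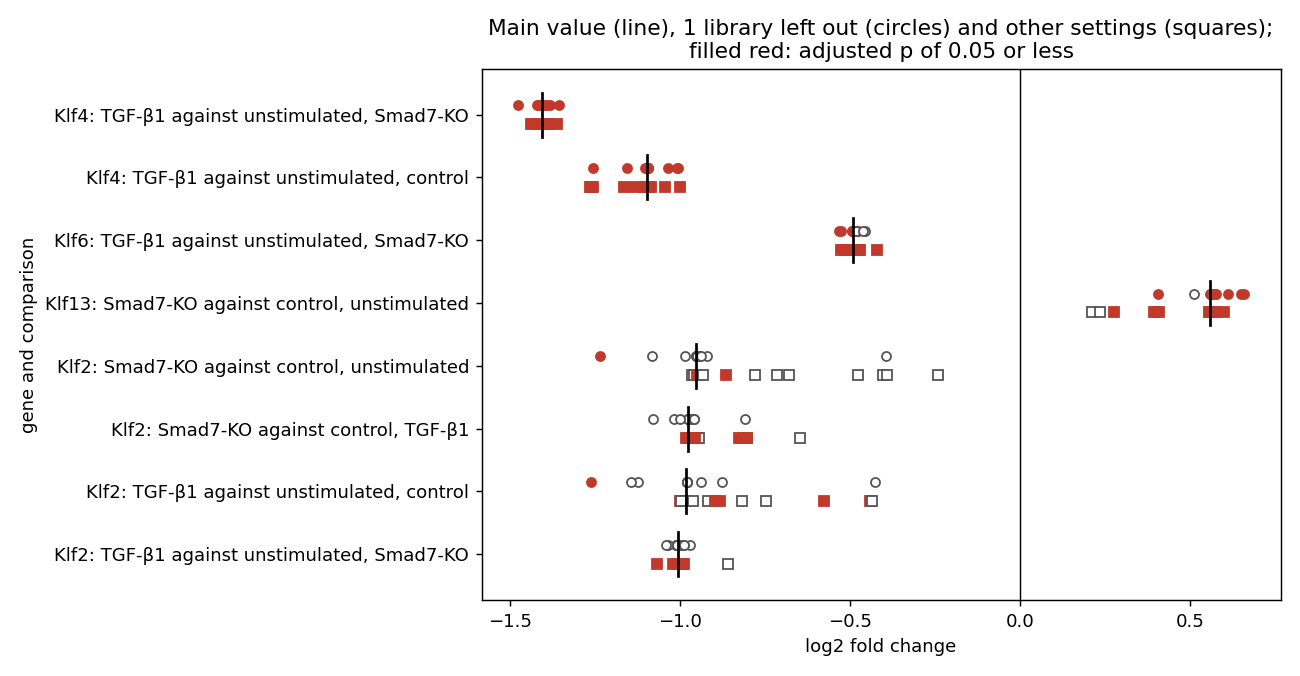
Log2 fold change (horizontal axis) of the called genes and of Klf2 in its 4 comparisons (vertical axis), with a line at the reported value, circles for fits without 1 library and squares for other settings, filled red at an adjusted p of 0.05 or less. Klf4 is filled in each fit, whereas unstimulated Klf2 with Smad7 loss spreads from -1.23 to -0.24 and is mostly unfilled.

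Of 16 other genes of the KLF and SP families 10 were tested, and Klf15 fell with TGF-β1 in both backgrounds. Klf15, a metabolic regulator that is known to oppose fibrosis in the heart, averaged 10.8 CPM (control) and 8.58 CPM (Smad7-KO) without stimulation, and 3.47 and 1.96 CPM with TGF-β1. Its log2 fold change was -1.64 in control (SE 0.20, adjusted p = 2.46e-04) and -2.13 in Smad7-KO cells (SE 0.21, adjusted p = 4.59e-05), and no other gene of the 10 was called under TGF-β1. In stimulated cells Klf15 was also lower with Smad7 loss (log2 fold change -0.83, SE 0.21, adjusted p = 0.0244). Sp5, a Wnt target, was lower with Smad7 loss in both states, with log2 fold changes of -3.39 (SE 0.64, adjusted p = 0.00478) and -2.41 (SE 0.72, adjusted p = 0.047) at levels of 2.28 CPM or less. Sp1 was higher in unstimulated Smad7-KO cells (log2 fold change 0.91, SE 0.28, adjusted p = 0.0369). Not all called genes of this list are named. Of its 10 tested genes, 2 were higher and 1 lower with Smad7 loss in unstimulated cells, against 12.1% and 13.7% of all tested genes. In stimulated cells 0 were higher and 3 lower, against 5.72% and 7.23%.

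Partners of KLF proteins were followed from the same table. Of 11 corepressors and coactivators, 3 were higher and 1 was lower in unstimulated Smad7-KO cells, against 12.1% higher and 13.7% lower among all tested genes, and their median log2 fold change was 0.11. Ep300, Crebbp and Sin3a were the higher genes, with log2 fold changes of 1.07, 0.70 and 0.59 (adjusted p = 0.0432, 0.0433 and 0.0484), and Hdac3 was lower (-0.45, adjusted p = 0.0362). These calls were not examined without unstimulated control library 2. Over all tested genes the called count of this comparison ranged from 660 to 7979 between settings, against 3907 in the main fit. With TGF-β1 Kat2b fell in Smad7-KO cells (-0.50, SE 0.13, adjusted p = 0.0259). Of 4 ubiquitin ligases reported to act on KLF proteins, Wwp1 was higher in unstimulated Smad7-KO cells (0.92, SE 0.21, adjusted p = 0.0131) and fell with TGF-β1 in Smad7-KO cells (-1.05, SE 0.22, adjusted p = 0.00811). It was the 1 called ligase in each case, while 12.1% of all tested genes were higher in the former comparison and 4.9% lower in the latter. Of 8 genes of the glucocorticoid response, which includes regulators of Klf9, Fkbp5 and Sgk1 rose and Dusp1 fell with TGF-β1 in both backgrounds. Over all tested genes 5.04% rose and 3.33% fell in control, and 5.33% and 4.9% in Smad7-KO cells. In both backgrounds 2 of the 8 had positive and 6 had negative log2 fold changes. Their median was -0.48 in control and -0.16 in Smad7-KO cells. Sgk1 rose by a log2 fold change of 2.02 in control and 2.61 in Smad7-KO cells.

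The genes whose log2 CPM ran most like that of a KLF over the 12 libraries were taken from 9939 well expressed genes outside the family. For Klf4 they were Crebl2, Mettl7a1 and Acot2, with Pearson r of 0.970, 0.966 and 0.965. For Klf6 they were Dtna, Cpeb3 and Fzd1, with r between 0.920 and 0.948, and for Klf13 Mief1, B4galt3 and Axl, with r between 0.954 and 0.968. For Klf2 they were Rchy1, Rras2 and Pdlim2 (r between 0.981 and 0.984) and for Klf7 Inhba, Stk35 and Brpf3 (r between 0.990 and 0.995). The 12 points include unstimulated control library 2 and share the composition of their libraries, and the r values are given as a description.

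In sequence most of the 10 transcripts had long 3′ ends, and all had few exons. Their annotated 3′ untranslated regions had a median of 2718.5 bases, against 1218 bases over 13561 tested genes, and ranged from 737 bases in Klf2 to 6266 bases in Klf7. Klf2 and Klf4 (982 bases) lay below the median of those genes, and the other 8 lay above it. The pentamer ATTTA, the core of AU-rich elements, occurred there at a median of 2.06 per kilobase, against 1.27 over those genes, and 8 of 10 genes lay above the latter. All 10 had fewer exons (2 to 6) than the median gene (9). Annotated genes overlapped Klf3, Klf7, Klf9 and Klf13 and none of the other 6 genes.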

How the data were processed

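For 12 samples of cultured cardiac fibroblasts (polyA RNA), the authors deposited a table of raw read counts per gene beside FPKM values. In all 423300 values the deposited FPKM gave back the count from gene length and total count, within a relative tolerance of 1e-06. Per the labels' processing notes the tools were CASAVA, TopHat2 2.0, Cufflinks 2.1.1 and HTSeq 0.6.1, with the builds mm10 and GRCm38.p6. The strand setting is not given in the sources used here. Totals of 19056916 to 25371321 counts set the precision, and counts of 3 or fewer were taken as the floor, for counting error only.

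Counts were fitted with edgeR 4.0.16 in R 4.3.3 (filterByExpr with a minimum count of 10, TMM, robust quasi-likelihood, 1 model of 12 libraries). Each SE is the log2 fold change over the root of its F value. P values were adjusted by Benjamini-Hochberg over 15150 genes, and 0.05 was the threshold for a call. Alternatives were DESeq2 1.42.0, limma 3.58.1 on log2(FPKM + 1) and log2(FPKM + 0.1), fits of single comparisons, DESeq2 size factors, no filter on low counts, the replicate number as a block, removal of the length trend (loess, span 0.3), and leaving out each library. Added after seeing the data were removal of a length and GC trend and 3 settings without control libraries numbered 2. The procedures were tested on simulated data. With 3 libraries a side, an exact two-sided test could not go below p = 0.1 and was not used.

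The 10 genes and the gene lists were chosen with earlier results of these data known. The text names all 10 genes, Smad7, up to 4 genes per list with the lowest p in a comparison, and the 3 genes most alike in pattern (mean log2 CPM of at least 3). Vwf, Lyz2, Cldn5, Kdr, Mapk7 and Map2k5 were named after their values were seen.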

Additional observations from a re-analysis of the deposited data

How the results depend on the processing

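With Smad7 loss in unstimulated cells, where 2 of 10 genes were called, edgeR on the libraries of the comparison alone called 0. DESeq2 on those libraries, no filter on low counts, limma on log2(FPKM + 1), limma on log2(FPKM + 0.1), removal of the length trend, removal of the length and GC trend, and leaving out both control libraries numbered 2 each called 1. Over all tested genes the setting with 0 calls called 4.54%, and the settings with 1 call between 10.8% and 29.9%. Fits without 1 library called between 0 (without unstimulated Smad7-KO library 2) and 8 (without unstimulated control library 3). Those fits called 9.9% and 51.5% of all tested genes. With Smad7 loss in stimulated cells, where 0 were called, DESeq2 on all libraries and limma at either pseudocount called 1, removal of the length trend and leaving out both libraries numbered 2 called 2, and single-comparison fits by edgeR and DESeq2, the length trend without control library 2, and DESeq2 without that library called 3. Over all tested genes the settings with 1 call called 14% to 18%, and those with 2 calls 17.9% and 23.2%. The settings with 3 calls called 30.8% to 35.7% of all tested genes. Fits without 1 library called 0 to 2 of the 10, and 5.7% to 28.8% of all tested genes. With TGF-β1 in control cells, where 1 was called, removal of the length trend and of the length and GC trend called 2, and DESeq2 on all libraries, the length trend without control library 2 and leaving out both libraries numbered 2 called 3, with 1 to 3 without 1 library. With TGF-β1 in Smad7-KO cells, where 2 were called, single-comparison fits called 5 by edgeR and 6 by DESeq2, and the length trend without control library 2, both libraries numbered 2 left out, and DESeq2 without control library 2 called 4, with 1 to 3 without 1 library. In control cells the settings with 2 calls called 14.5% and 15.6% of all tested genes, and those with 3 calls 9.45% to 18%. Without 1 library the range was 5.31% to 22.3%. In Smad7-KO cells single-comparison fits called 26.3% of all tested genes by edgeR and 21.8% by DESeq2. The settings with 4 calls called 17.4% to 24.1%, and fits without 1 library 6.34% to 16.3%. The interaction called 0 of the 10 throughout. The cause of these differences was not tested.

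Signs turned only for log2 fold changes that were not called. For Klf13 with Smad7 loss under TGF-β1 (0.08), the values were -0.078 with the length trend removed, -0.017 with length and GC removed, -0.072 with the length trend removed and control library 2 left out, and -0.018 without both libraries numbered 2. For Klf13 with TGF-β1 in Smad7-KO cells (-0.02) the values were 0.0126 with the length trend removed, 0.0148 with control library 2 also left out, and 0.000782 without both libraries numbered 2. Klf6 with Smad7 loss in unstimulated cells (0.21) was -0.018 with length and GC removed. With TGF-β1 in control cells limma gave 0.19 and 0.23 for Klf3 (-0.11), 0.18 and 0.29 for Klf9 (-0.06) and, at the smaller pseudocount, 0.13 for Klf7 (-0.16). Klf9 with Smad7 loss under TGF-β1 (-0.03) was 0.0098 with the length trend removed and 0.013 with control library 2 also left out. The Klf2 interaction (-0.02) was 0.0047 by DESeq2 and 0.0014 with DESeq2 size factors. Without 1 library the ranges were -0.033 to 0.49 for Klf5 in unstimulated and -0.11 to 0.26 in stimulated cells with Smad7 loss, -0.20 to 0.19 for Klf9 and -0.014 to 0.15 for Klf13 in stimulated cells with Smad7 loss, -0.54 to 0.60 for Klf3, -0.59 to 0.69 for Klf7, -0.51 to 0.55 for Klf9 and -0.16 to 0.10 for Klf11 with TGF-β1 in control, -0.20 to 0.050 for Klf11 and -0.066 to 0.032 for Klf13 with TGF-β1 in Smad7-KO cells, and -0.57 to 0.26 for the Klf2 interaction.

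With the replicate number as a block the counts were 2, 0, 1, 2 and 0, and Klf9 was 0.025 with Smad7 loss under TGF-β1 and 0.041 with TGF-β1 in control. Of 18 same-numbered pairs 1 had a correlation of deviations over 0.1 (-0.357 to 0.524), namely unstimulated and TGF-β1 control library 2. Differently numbered pairs were not compared, so whether the numbers pair the libraries cannot be told. Over all genes the called counts ranged from 660 to 7979, 883 to 5530, 391 to 3449, 985 to 3792 and 0 to 21 in the 5 comparisons, against 3907, 1962, 1268, 1550 and 3. Klf5, with 7 to 20 counts, was limited by depth.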
